A study of Mus musculus with 12 samples.

Results

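The regulatory landscapes described here are those of Pou5f1, Nanog and Sox2, 3 genes whose products hold mouse embryonic stem cells in the pluripotent state. A region was a stretch of open chromatin formed by merging the overlapping peaks of 12 ATAC-seq libraries. Regions were taken where they overlapped the GRCm38 span of Pou5f1 or Nanog extended by 10 kb on both sides, or the span of Sox2 extended by 150 kb. There were 41 such regions among 97889 in the genome, with 9 at Pou5f1, 6 at Nanog and 26 at Sox2. The rule uses gene position and no measured value, while the genes themselves were picked with earlier results of these data known. Of the 41 regions, 11 were listed in all 12 libraries, 18 in 2 to 11 libraries and 12 in 1 library, against 23.8% of all regions of the genome listed in all 12.

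ATAC-seq uses Tn5 transposase, which places sequencing adapters into accessible DNA. The series was made to see whether 2 synthetic constructs placed on chromosome X of mouse embryonic stem cells are open, set beside the remaining genome. The 6 synHPRT1R libraries came from cells with a construct built from the reversed sequence of human HPRT1, a gene of purine salvage, in clone 1 and clone 2 with 3 replicates each. The 6 synHPRT1 libraries came from cells with the human HPRT1 sequence in its natural order, also in clone 1 and clone 2 with 3 replicates each. The cells of both genotypes are labelled BL6xCAST, a cross of the C57BL/6 and CAST strains, so each list joins the signal of both parental chromosomes. All cells grew on gelatin in medium of which 80% was 2i medium, with LIF, 3 µM CHIR99021 (a GSK3 inhibitor) and 1 µM PD0325901 (a MEK inhibitor), and 50000 cells were tagmented per library. Both genotypes carry a construct, and cells without one were not analysed here. A clone is 1 cell line, and the labels do not say whether its replicates were separate cultures, so a p-value reflects variation among these libraries only, part of which can be technical.

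Oct4 (encoded by Pou5f1) and Sox2 bind DNA side by side at a composite motif, and together with Nanog they occupy enhancers of one another's genes and of many other genes of the stem cell state. In mouse stem cells Pou5f1 is known to be driven by a distal and a proximal enhancer upstream of its start, with the distal one in use in the naive state. Sox2 is known to depend in these cells on a control region far downstream of the gene, and Nanog on elements on both sides of it. The positions of these named elements were not in the sources used here, so regions are called by their distance from the gene start.

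The DNA just before the 3 starts differed in composition and in the motifs it held. The following RefSeq sequences (assembly GRCm38.p6) are the 250 bases before the annotated start, on the plus strand, where all 3 genes lie. They are printed because a peak covered this stretch in 12 of 12 libraries at Nanog and Sox2 and in 1 library at Pou5f1. Capitals mark matches to the motifs searched on both strands.
Pou5f1, chr17:35505782-35506031: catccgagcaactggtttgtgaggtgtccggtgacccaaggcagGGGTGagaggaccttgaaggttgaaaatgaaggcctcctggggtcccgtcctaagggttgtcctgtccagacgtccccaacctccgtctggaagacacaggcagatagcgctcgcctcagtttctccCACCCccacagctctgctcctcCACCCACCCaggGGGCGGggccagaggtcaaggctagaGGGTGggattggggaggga
Nanog, chr6:122707239-122707488: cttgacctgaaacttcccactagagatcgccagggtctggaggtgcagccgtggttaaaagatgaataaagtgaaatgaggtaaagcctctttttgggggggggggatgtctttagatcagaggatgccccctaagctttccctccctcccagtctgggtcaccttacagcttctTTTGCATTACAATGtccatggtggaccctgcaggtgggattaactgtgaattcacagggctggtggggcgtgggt
Sox2, chr3:34649745-34649994: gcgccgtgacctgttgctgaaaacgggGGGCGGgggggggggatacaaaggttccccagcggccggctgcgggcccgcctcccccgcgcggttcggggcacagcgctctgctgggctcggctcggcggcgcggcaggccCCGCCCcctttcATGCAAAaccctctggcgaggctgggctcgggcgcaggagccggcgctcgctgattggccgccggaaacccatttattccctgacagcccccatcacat
The motifs were the octamer part TTTGCAT, the Sox motif ACAATG, the Esrrb motif AAGGTCA, the STAT motif TTCNNNGAA, the Sp1 motif GGGCGG and the Klf motif CACCC. Nanog held the octamer part and, after 1 base, the Sox motif, together TTTGCATTACAATG, from 75 to 62 bases before the start. Sox2 held the octamer part on the minus strand (ATGCAAA, 99 to 93 bases before the start) and 2 Sp1 motifs. Pou5f1 held 1 Sp1 motif and 5 Klf motifs, a pair of which share a base. No match to the Esrrb or STAT letters lay in these windows. Among 32851 RefSeq promoter windows of the same length, 4.12% held the octamer part, 10.7% the Sox motif, 4.08% the Esrrb motif, 7.02% the STAT motif, 32.7% the Sp1 motif and 52.0% the Klf motif. The octamer part followed after 0 to 2 bases by the Sox motif was in 3 windows (0.00913%), namely the windows of both annotated Nanog starts, which overlap, and that of Acyp1. The GC content was 62% at Pou5f1, 52% at Nanog and 72% at Sox2, against a median of 52.4% over all windows. A match describes letters and does not show that a factor is bound.

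Each library listed between 38403 and 63704 peaks, and its genome-wide background was 1.74 to 3.72 reads. At that background the least summit pileup listed was 8 to 11 reads, so a weak region can be missing from a shallow library, and an unlisted region was taken as not detected. The deposited fold is the summit pileup over the local background, with 1 read added to both. The in-list rank is given as the percentage of the peaks of the same list with a lower fold. The enrichment is the summit pileup over the genome-wide background of the library, recovered from the deposited fold and p-value. Over the regions listed in all 12 libraries the median fold was 6.69 and the median enrichment 10.8. Intervals from reads would cover counting error only and are not given, since the lists hold no read totals. In these bulk libraries, a region open in fewer cells and a region less open in each cell cannot be told apart.

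Nanog (GRCm38 chr6:122707489-122714633, gene ID 71950) had 3 regions listed in every library, at its start, upstream and downstream. Nanog is a homeobox factor that stabilises the naive state. The region over its start (chr6:122706925-122707790) had its summit a median of 91.5 bp before the start, with a spread of 120 bp (SD, n = 12). Its fold was 2.90 at the lowest, 3.46 at the median and 3.78 at the highest in the 6 synHPRT1R libraries, against 2.72, 3.15 and 4.14 in the 6 synHPRT1 libraries. It had a higher fold than 0.602%, 11% and 19.8% of the peaks of its own list in synHPRT1R (lowest, median, highest), against 0.146%, 9.71% and 29.2% in synHPRT1. The Nanog start thus stood in the lower 30% of every list by fold, and the genotypes overlapped. Its enrichment was 12.4, 14.0 and 15.3 in synHPRT1R (lowest, median, highest), against 11.5, 13.1 and 17.8 in synHPRT1, which was above the median of 10.8 over the regions of all 12 libraries.

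The upstream region of Nanog (chr6:122702305-122703224), with its summit 4.6 kb before the start, was the most enriched of the 11 regions. Its fold was 6.05, 7.17 and 8.01 (lowest, median, highest) in synHPRT1R, against 6.78, 7.12 and 7.42 in synHPRT1. It had a higher fold than 66.7%, 80.2% and 85.7% of its list in synHPRT1R, against 75%, 78.6% and 80.9% in synHPRT1. The enrichment was 23.7, 31.5 and 34.3 in synHPRT1R, against 30.1, 32.9 and 33.6 in synHPRT1. The lowest values were those of synHPRT1R clone 1 replicate 3 and, at 27.2, of synHPRT1R clone 2 replicate 1. In the first of these the summit held 47 reads over a local background of 6.94 reads. No annotated gene overlapped the region and no annotated start lay within 1 kb of it.

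The downstream region of Nanog (chr6:122719652-122720517), 5019 bp past the end of the gene, had its summit 12.7 kb after the start and overlapped no annotated gene. Its fold was 4.03, 6.24 and 7.05 in synHPRT1R (lowest, median, highest), against 6.10, 6.63 and 7.65 in synHPRT1. Its enrichment was 5.56, 9.14 and 11.8 in synHPRT1R, against 9.65, 10.4 and 11.9 in synHPRT1, so the synHPRT1R libraries reached lower while the genotypes overlapped. The 3 other Nanog regions were listed in fewer libraries. One lay 837 bp past the gene (chr6:122715470-122716373) in 3 synHPRT1R and 4 synHPRT1 libraries, with folds of 2.57 to 4.09. The lists that held it had a median of 52122 peaks and those without it 44693, and a part of list length in this was not tested. One lay inside the gene (chr6:122713132-122713724) in 1 synHPRT1R and 2 synHPRT1 libraries, and one 3.8 kb before the start was listed in synHPRT1R clone 1 replicate 1 alone with a fold of 2.22.

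Pou5f1 (chr17:35506032-35510777, gene ID 18999) had 2 regions listed in every library, and neither covered its start. The first (chr17:35503708-35505361) ended 671 bp before the gene and had its summit 1973.5 bp before the start at the median, with a spread of 57.6 bp (SD, n = 12). It overlaps the uncharacterised lncRNA gene Gm32362. Its fold was 3.89, 4.44 and 5.48 in synHPRT1R (lowest, median, highest), against 4.83, 5.53 and 7.59 in synHPRT1. It had a higher fold than 27.3%, 32.3% and 55.2% of its list in synHPRT1R, against 42.4%, 59.1% and 81.6% in synHPRT1. The enrichment was 11.1, 13.5 and 16 in synHPRT1R, against 13.7, 15.5 and 21.2 in synHPRT1. The synHPRT1R values lay lower on each scale, with overlap between the genotypes.

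No region covered the Pou5f1 start itself, and a peak just before it was detected in few libraries. The nearest region (chr17:35505448-35505987) ended 45 bp before the gene, holds the annotated start of Gm32362, and was listed in synHPRT1R clone 1 replicate 2 and synHPRT1R clone 2 replicate 2 and in 0 of 6 synHPRT1 libraries. Its fold was 3.21 and 2.61 in these 2 libraries, a higher fold than 6.54% and 0.127% of their lists. Its summits nevertheless held 29 and 16 reads, an enrichment of 10.1 and 7.90, over a local background of 8.35 and 5.51 reads. Within 500 bp of either end of the gene a peak was listed in 2 synHPRT1R and 0 synHPRT1 libraries, within 1 kb in 3 and 3, and within 2 kb in 6 and 6. These counts pool the start and the far end of the gene, so they are not counts near the start alone. One region inside the gene (chr17:35509512-35509835), 3.6 kb after the start, was listed in 1 synHPRT1R and 1 synHPRT1 library.

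The second Pou5f1 region of all libraries (chr17:35516527-35517236), with its summit 10.9 kb after the Pou5f1 start, holds the annotated starts of 2 neighbouring genes, Tcf19 and Cchcr1. Its fold was 4.54, 5.55 and 6.71 in synHPRT1R (lowest, median, highest), against 4.40, 5.78 and 6.03 in synHPRT1. The enrichment was 9.32, 11.5 and 13.8 in synHPRT1R, against 8.89, 11.9 and 13.0 in synHPRT1, and the genotypes overlapped over most of their range. Upstream, a region 9.0 kb before the start (chr17:35496479-35497403) was listed in 4 synHPRT1R and 5 synHPRT1 libraries with folds of 3.26 to 4.86. The remaining 4 regions, all over Tcf19 or Cchcr1, were listed in 1 or 2 libraries each with folds of 2.83 to 3.48.

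Sox2 (chr3:34649995-34652461, gene ID 20674), an HMG box factor and the DNA partner of Oct4, lies within the long noncoding transcript gene Sox2ot. The region over its start (chr3:34649317-34651052) spanned 1736 bp and was listed in every library, with the summit a median of 43.5 bp before the start. Its fold was 3.53, 4.87 and 6.30 in synHPRT1R (lowest, median, highest), against 4.48, 5.07 and 6.26 in synHPRT1. It had a higher fold than 8.88%, 47.6% and 69.4% of its list in synHPRT1R, against 35.4%, 47.0% and 73.2% in synHPRT1. Its enrichment was 8.95, 12.3 and 14.3 in synHPRT1R, against 10.0, 11.9 and 15.3 in synHPRT1, so the medians were close and the ranges overlapped.

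Around the Sox2 gene, within 20 kb, 7 further regions were detected. Those at 10.6 and 7.3 kb before the start were listed in 10 and 11 libraries, and those at 4.0 and 14.4 kb after it in 11 and 10. The region at 4.0 kb (chr3:34653357-34654167), 896 bp past the gene, had a fold of 3.38 to 6.04 and was missing from synHPRT1 clone 2 replicate 3, which has the shortest list. The region at 18.6 kb (chr3:34668287-34668807) was listed in all 12, with an enrichment of 8.08, 10.3 and 13.8 in synHPRT1R (lowest, median, highest), against 6.68, 10.0 and 12.6 in synHPRT1. The other two, at 9.1 kb before and 15.2 kb after the start, were listed in 2 and 3 libraries.

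Far downstream of Sox2, the stretch from 100 to 120 kb after the start, which the wide window was chosen to reach, held 6 regions, and 2 of them were listed in all 12 libraries. The region at 111.4 kb (chr3:34760874-34761615) had an enrichment of 13.5, 14.0 and 16.8 in synHPRT1R (lowest, median, highest), against 12.2, 17.7 and 19.5 in synHPRT1. Its fold was 4.31, 4.58 and 5.24 in synHPRT1R, against 4.29, 5.15 and 6.31 in synHPRT1. The region at 106.8 kb (chr3:34756482-34757287) had an enrichment of 8.61, 11.2 and 13.6 in synHPRT1R, against 6.66, 9.51 and 11.9 in synHPRT1. By fold it stood low in the lists, above 2.26%, 12.6% and 26.0% of the peaks in synHPRT1R and above 0.0781%, 3.82% and 21.0% in synHPRT1. The median of the first region was thus lower in synHPRT1R and that of the second higher, with overlap in both. Between them, regions at 108.0 and 110.2 kb were listed in 8 libraries each, in 4 and 3 synHPRT1R and in 4 and 5 synHPRT1 libraries. Those at 105.3 and 114.6 kb were each listed in 1 library. The region at 110.2 kb ends at position 34760865 and that at 111.4 kb begins at 34760874, and they join when gaps up to 100 bp are merged.

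Nearer to the gene than this stretch, at 95.4 kb (chr3:34744901-34745816), lay the Sox2 region with the highest median fold of the 41 regions. The fold was 7.18, 9.11 and 10.1 in synHPRT1R (lowest, median, highest), against 6.12, 8.04 and 10.4 in synHPRT1. It had a higher fold than 78.7%, 91.9% and 95.6% of its list in synHPRT1R, against 65.8%, 86.6% and 96.3% in synHPRT1. Its enrichment was 10.9, 12.9 and 17.4 in synHPRT1R, against 9.26, 12.6 and 16.8 in synHPRT1. The region at 85.1 kb (chr3:34734720-34735482), also listed in all 12, had an enrichment of 5.56, 8.48 and 12.7 in synHPRT1R, against 5.94, 8.43 and 9.82 in synHPRT1. The genotypes overlapped at both regions, and no annotated gene overlapped either of them. A region at 145.7 kb was listed in 9 libraries, 4 synHPRT1R and 5 synHPRT1, and one at 73.7 kb before the start in 2 synHPRT1R and 1 synHPRT1. The lists with the region at 145.7 kb had a median of 46685 peaks and those without it 48954. This order is the reverse of that at the Nanog region 837 bp past the gene. The 8 regions of the window not yet named were listed in 1 or 2 libraries each, with folds of 2.65 to 4.98.

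**Figure D1:**
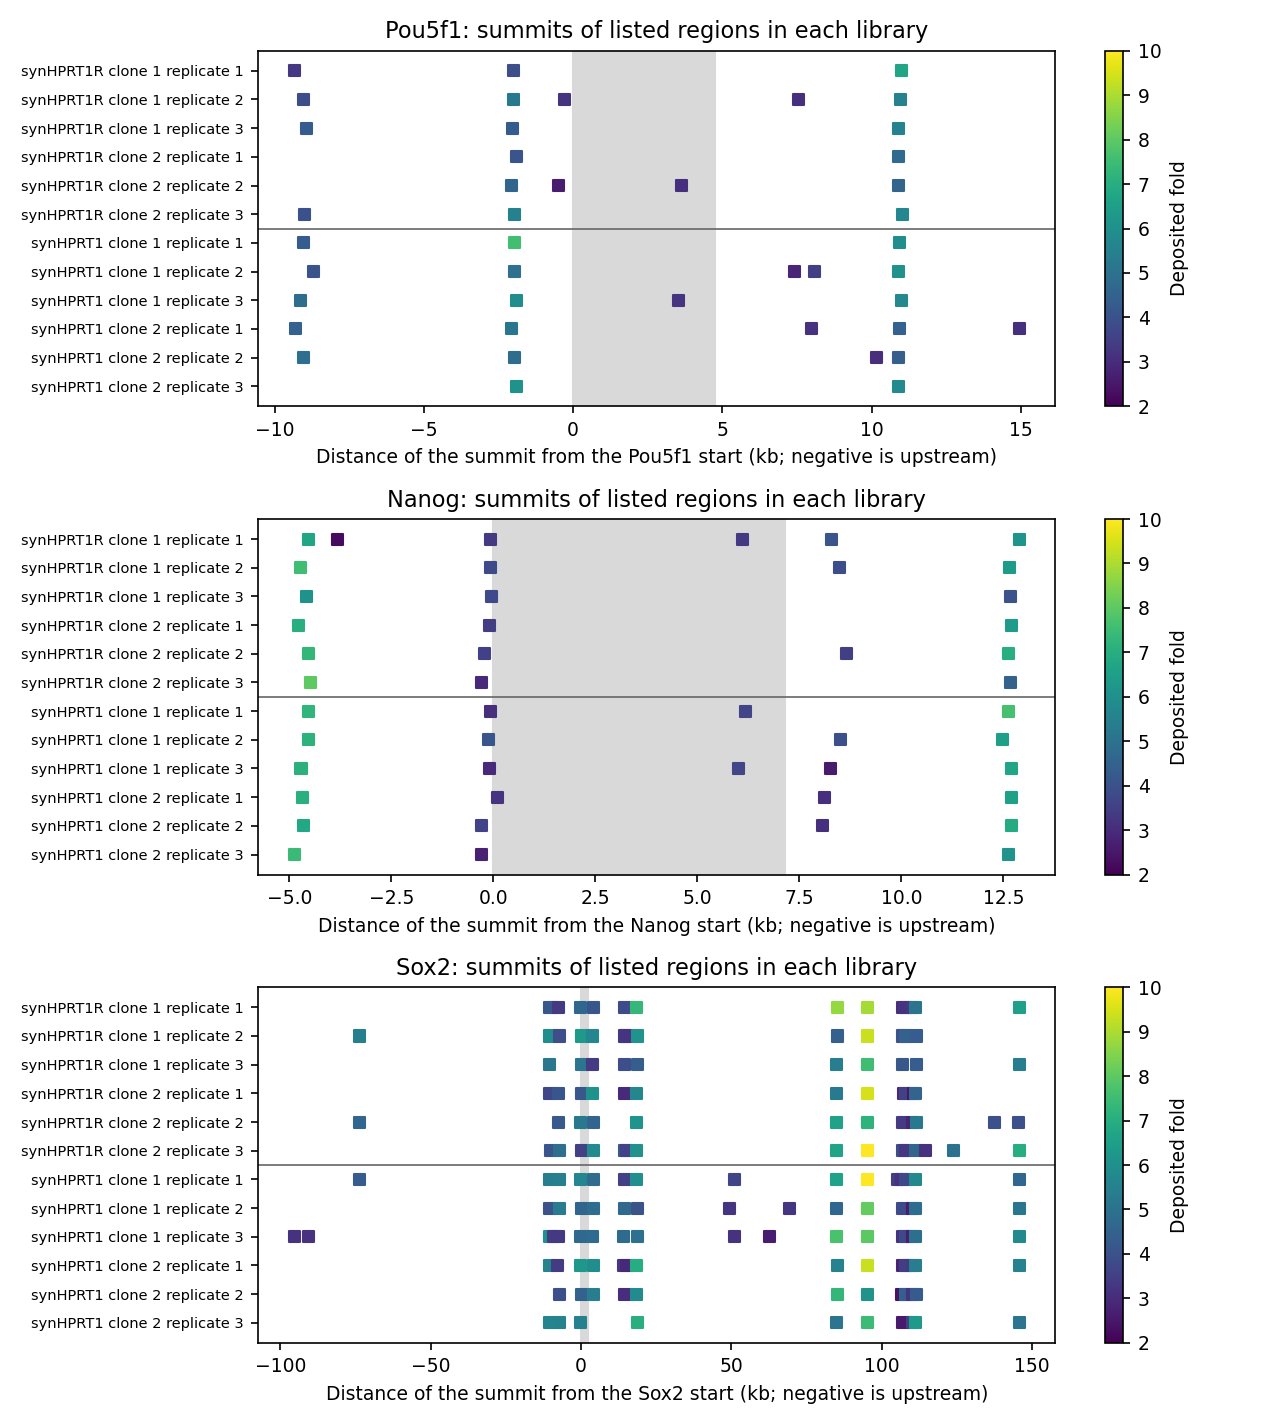
Each square is the summit of a region listed in 1 library, placed by its distance from the gene start in kb (horizontal axis) with 1 row per library and coloured by the deposited fold, and grey marks the gene. The columns at 2.0 kb before Pou5f1, at 3 places around Nanog and at the start and the far downstream side of Sox2 run through all 12 rows. Just before the Pou5f1 start there are squares in 2 synHPRT1R rows.

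The summit map of the 3 loci shows how far the summits of the regions of all 12 libraries lay apart. Overlapping peaks were merged, so by construction the summits fall within a region, here 521 to 1736 bp wide. No spread of other regions is given beside these values. Summits of a region scattered by 42.7 bp (Sox2 at 95.4 kb) to 143 bp (Sox2 at 106.8 kb), as SD over 12 libraries. The Pou5f1 region at 2.0 kb before the start had its summits between positions -2050 and -1885 bp.

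By enrichment the Nanog region at 4.6 kb before the start came first among the 11 regions, at 31.3 ± 3.03 (SD, n = 12). It was higher than the next, the Sox2 region at 111.4 kb with 15.8 ± 2.30, in 12 of 12 libraries, by 1.00 ± 0.22 on the log2 scale (two-sided exact sign-flip permutation p = 0.000488, the smallest that 4096 sign patterns allow, and 0.00488 after Benjamini-Hochberg adjustment over 10 pairs of neighbours). Then followed the Pou5f1 region at 2.0 kb before the start (15.0 ± 2.91), the Nanog start (13.9 ± 1.86), Sox2 at 95.4 kb (13.0 ± 2.36) and the Sox2 start (12 ± 2.01). The last were Pou5f1 at 10.9 kb (11.4 ± 1.74), Sox2 at 106.8 kb (10.3 ± 2.1), Sox2 at 18.6 kb (10.2 ± 2.09), Nanog at 12.7 kb (9.55 ± 1.81) and Sox2 at 85.1 kb (8.37 ± 2.04). None of the other 9 neighbours in this order passed (adjusted p from 0.454 to 0.920, exact sign-flip permutation test), so the order of these neighbours is not resolved, and regions further apart in the order were not compared. The pairs were set by the observed order, and both the enrichment scale and these tests were chosen after the data were seen.

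**Figure D2:**
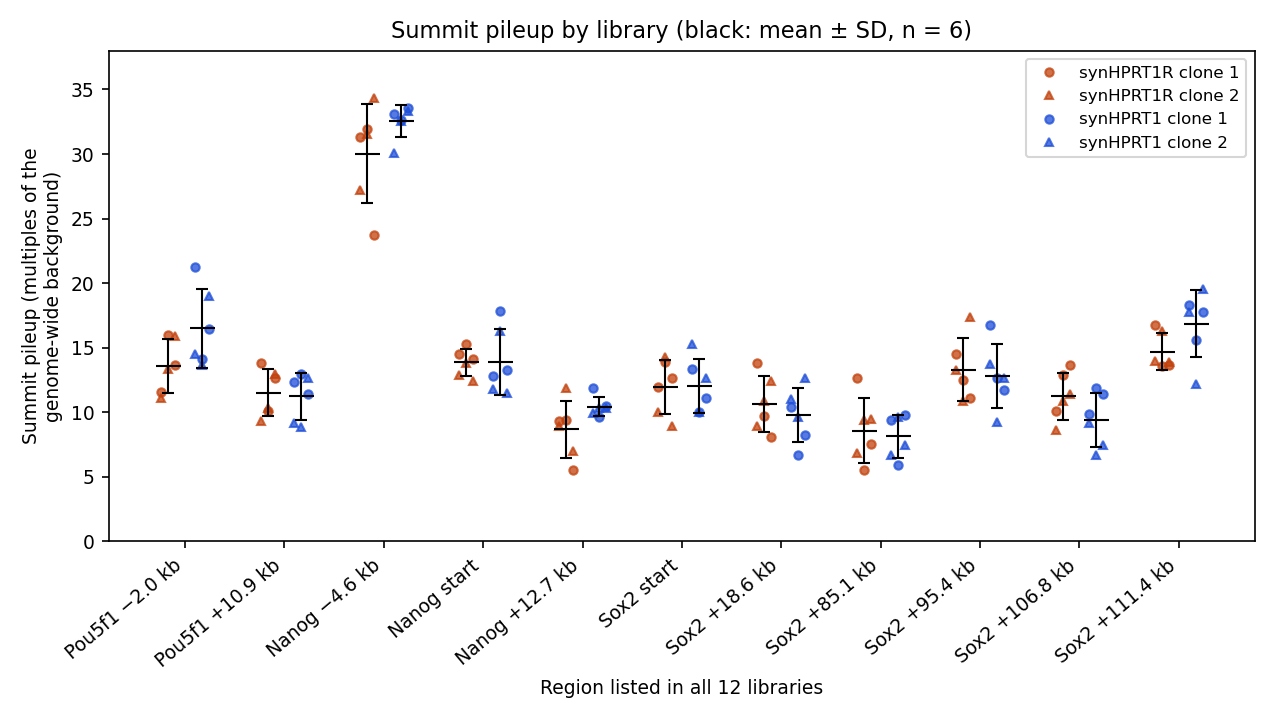
The summit pileup of each region listed in all 12 libraries is shown as a multiple of the genome-wide background (vertical axis), with 1 point per library, synHPRT1R left of synHPRT1, circles for clone 1 and triangles for clone 2, and black bars for the mean ± SD of 6 libraries. The Nanog region at 4.6 kb before the start stands above all others in both genotypes, and the points of the genotypes overlap in every region.

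The deposited fold and the enrichment put the same regions in different places. The position of a region was taken as the percentage of regions listed in all 12 libraries that had a lower value in the same library. By fold these were 23285 regions, and by enrichment the 23203 of them with a recovered pileup in every library. The median position over 12 libraries is given here. The Nanog start stood at 0.930% by fold and at 69.4% by enrichment. Sox2 at 111.4 kb stood at 13.7% by fold and 79.8% by enrichment, and Sox2 at 106.8 kb at 0.359% and 41.7%. The Pou5f1 region at 2.0 kb before the start stood at 17.2% by fold and 76.5% by enrichment, and the Sox2 start at 16.4% and 56.1%. The Nanog region at 4.6 kb before the start stood at 59.6% by fold and 98.6% by enrichment. The scales differ by construction in the background they use. The local background was 4.01 times the genome-wide one at Nanog 4.6 kb before the start and 3.85 times at the Nanog start. It was 2.85 and 2.78 times at Sox2 106.8 and 111.4 kb, 2.64 times at Pou5f1 2.0 kb before the start and 2.1 times at the Sox2 start. The median over the 23203 regions was 1.18 times, and 99.1%, 99%, 96.7%, 96.4%, 95.6% and 89.7% of them lay below these 6 values in the order given. The other 5 regions differed less between the scales. Pou5f1 at 10.9 kb (1.74 times) stood at 27.8% by fold and 53.04% by enrichment, and Sox2 at 18.6 kb (1.35 times) at 35.003% and 40.9%. Nanog at 12.7 kb (1.18 times) stood at 40.01% by fold and 41.3% by enrichment, and Sox2 at 95.4 kb (1.2 times) at 76.9% and 66.4%. Sox2 at 85.1 kb, at the genome-wide background, stood lower by enrichment (23.8%) than by fold (37.7%).

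**Figure D3:**
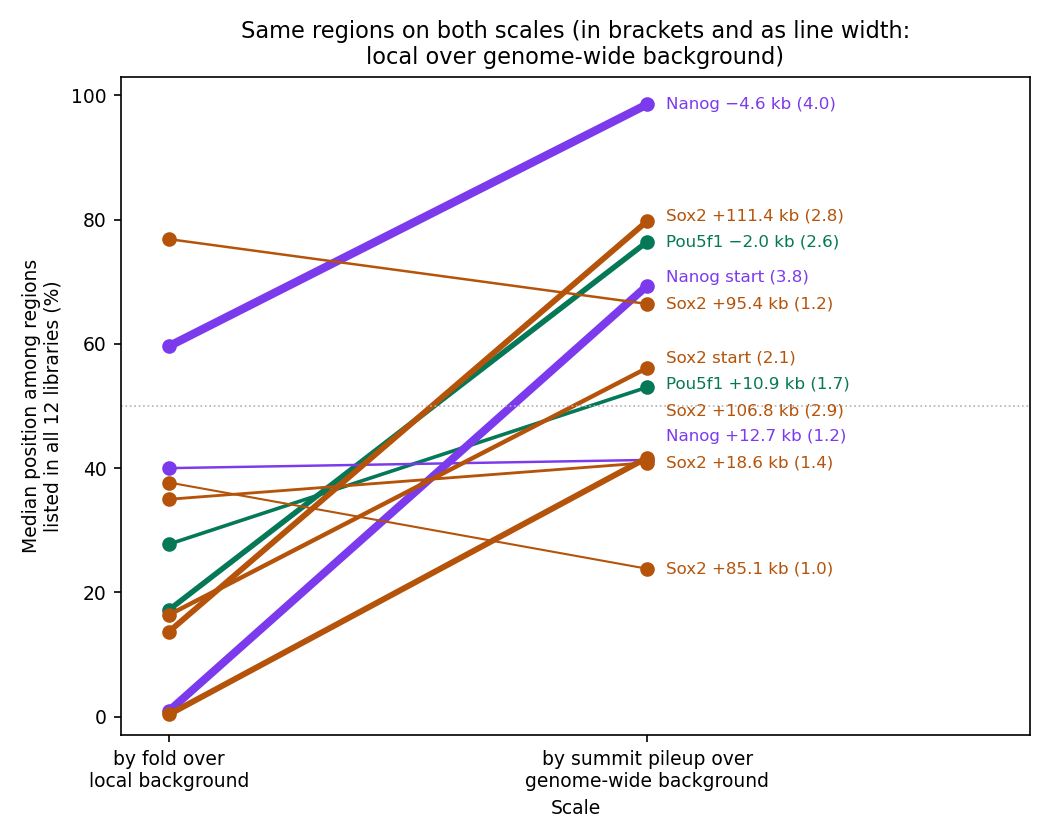
Each line joins the median position of 1 region among regions listed in all 12 libraries (vertical axis, %) by deposited fold (left) and by summit pileup over the genome-wide background (right, among those with a recovered pileup), with the local over genome-wide background in brackets and as line width. Thick lines rise steeply, from 0.930% to 69.4% at the Nanog start, while the thin lines of Sox2 at 85.1 and 95.4 kb fall.

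**Figure D4:**
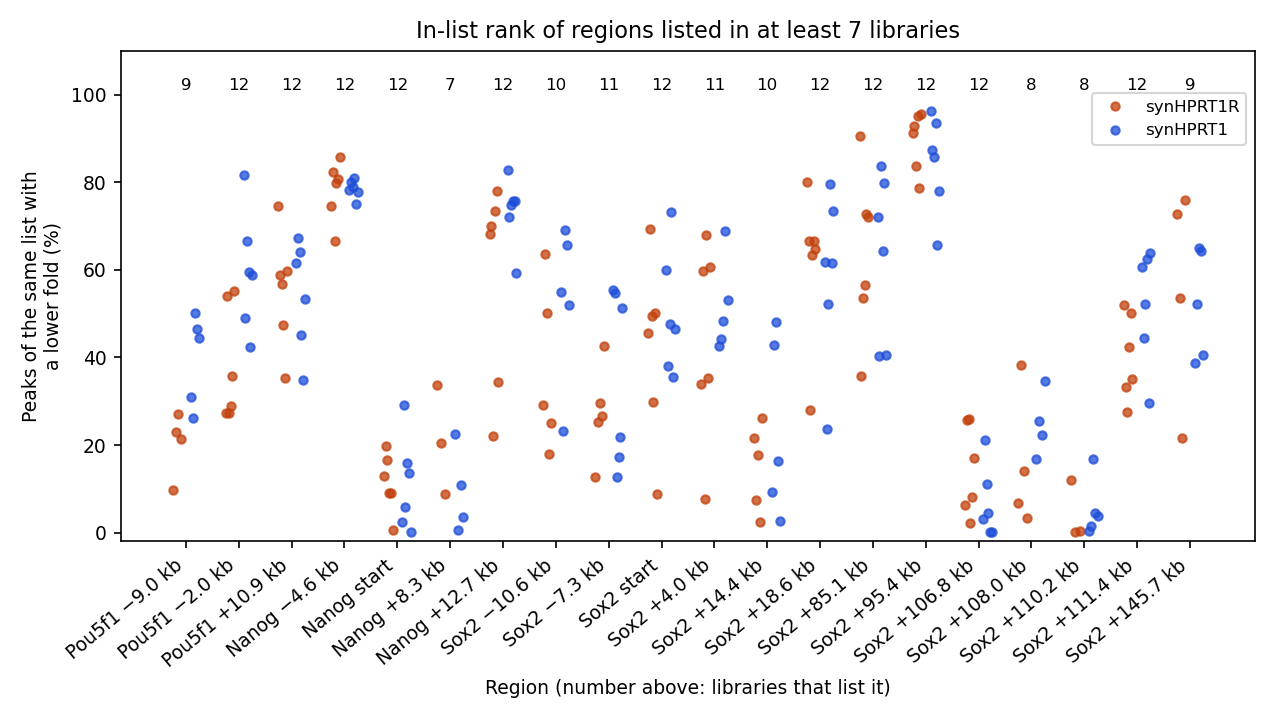
The percentage of peaks of the same list with a lower fold (vertical axis) is shown for the regions listed in at least 7 libraries, with 1 point per library that lists the region, synHPRT1R left of synHPRT1, and the number of listing libraries above. Sox2 at 95.4 kb and Nanog at 4.6 kb before the start lie near the top, and the Nanog start and Sox2 at 106.8 and 110.2 kb lie low, with highest points at 29.2%, 26.0% and 16.9%.

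The plot of in-list ranks also shows the spread that 1 region has between libraries. Nanog at 12.7 kb ranged from 22.0% to 82.8% of the list, and the Pou5f1 region at 2.0 kb before the start from 27.3% to 81.6%. Ranks come from lists of unequal length, so the rank values of the genotypes set side by side above are descriptions, and the genotypes were tested on position and enrichment instead.

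The genotypes did not differ beyond the spread between libraries in the number of regions listed at any of the 3 loci. At Pou5f1 the counts were 3, 5 and 3 in synHPRT1R clone 1 and 2, 4 and 3 in synHPRT1R clone 2, against 3, 5 and 4 in synHPRT1 clone 1 and 5, 4 and 2 in synHPRT1 clone 2. The means were 3.33 ± 1.03 in synHPRT1R and 3.83 ± 1.17 in synHPRT1 (SD, n = 6 each, two-sided exact permutation p = 0.602). At Nanog the means were 3.83 ± 1.17 in synHPRT1R and 4.00 ± 0.632 in synHPRT1 (SD, n = 6 each, exact permutation p = 1), from 3 to 6 regions per library. At Sox2 the counts were 14, 13 and 10 in synHPRT1R clone 1 and 12, 12 and 15 in clone 2, against 15, 14 and 18 in synHPRT1 clone 1 and 14, 11 and 10 in clone 2. The Sox2 means were 12.7 ± 1.75 in synHPRT1R and 13.7 ± 2.88 in synHPRT1 (SD, n = 6 each, exact permutation p = 0.569). In lists of equal length the difference at Sox2 and at Nanog changed sign, to 0.5 and 0.167 regions more in synHPRT1R (exact permutation p = 0.716 and 1). Clones are the independent units, and with 2 per genotype the smallest exact permutation p is 0.333. Clone means of the Sox2 counts were 12.3 and 13.0 in synHPRT1R, against 15.7 and 11.7 in synHPRT1, so the synHPRT1 clones stood on both sides of the synHPRT1R ones.

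No region of the 3 loci passed the test of presence between genotypes. Of the 30 regions missing from at least 1 library, 0 passed Fisher's exact test (two-sided, Benjamini-Hochberg over 74604 regions of the genome), and 0 had an unadjusted p under 0.05. Over the genome the shares were 0.00% and 0.220%. The lowest Fisher's exact p among the 30 was 0.455 (adjusted p = 1). It was reached by the region ending 45 bp before the Pou5f1 gene, the Pou5f1 region at 8.0 kb and the Sox2 region at 51.1 kb. Each of these was listed in 2 libraries of 1 genotype. The smallest exact p that this test allows, for presence in 6 libraries of 1 genotype against 0 of the other, is 0.00216. A region listed in few libraries, or missing from few, cannot reach a p under 0.05 however it is split. Of the 30, only the Nanog region 837 bp past the gene, listed in 7 libraries, could have done so. For the others the test could not decide.

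The position by fold was then compared for the 11 regions of all 12 libraries. Of these, 0 passed the two-sided exact permutation test of 6 against 6 with adjustment over 23285 regions, and 0 had an unadjusted p under 0.05, against 0.00% and 6.62% of all such regions. Over the genome the 1541 regions with an unadjusted p under 0.05 were 790 higher (3.39% of all) and 751 lower (3.23%) in synHPRT1R. By enrichment 0 of the 11 passed and 0 had an unadjusted p under 0.05, against 0.00% and 7.04% of 23203 regions, with 630 higher (2.72%) and 1004 lower (4.33%) in synHPRT1R. The median shift over all regions was -0.02 on the log2 scale by enrichment and 0 percentage points by position. In 0 of the 11 regions did the genotypes fail to overlap, by position or by enrichment, against 0.369% and 0.405% of all such regions. The lowest p by position belonged to the Pou5f1 region at 2.0 kb before the start, with 12.2 ± 9.02% in synHPRT1R and 29.1 ± 19.2% in synHPRT1 (SD, 6 libraries each, two-sided exact permutation p = 0.0606 and adjusted p = 0.768). Its enrichment was 13.6 ± 2.07 in synHPRT1R and 16.5 ± 3.03 in synHPRT1 (SD, n = 6 each), a log2 difference of -0.27 (two-sided exact permutation p = 0.0823 and adjusted p = 0.764). By clone, the position was 9.77% and 14.6% in synHPRT1R and 36.0% and 22.3% in synHPRT1. The downstream Nanog region at 12.7 kb followed by enrichment, with 8.67 ± 2.18 in synHPRT1R and 10.4 ± 0.758 in synHPRT1 (SD, 6 libraries each, log2 difference -0.30, two-sided exact permutation p = 0.0844 and adjusted p = 0.767). Neither difference passed the exact test, before or after adjustment.

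The 3 genes had more open regions per library around them than most protein-coding genes. Within 10 kb of the gene, Pou5f1 had 3.58 regions per library on average, Nanog 3.92 and Sox2 3.83, against a median of 1.75 over 21883 protein-coding genes. Of those genes, 84.4% had fewer than Pou5f1, 87.5% fewer than Nanog and 86.8% fewer than Sox2. Within 150 kb Sox2 had 13.2 regions per library against a median of 9.92, and 69.4% of genes had fewer. In the same 10 kb windows, genes of the related Klf factors, which take part in the naive network, had 3.00 (Klf2), 1.83 (Klf4) and 3.67 (Klf5). Regions listed in all 12 libraries numbered 2 at Pou5f1, 3 at Nanog and 1 at Sox2 within 10 kb, against 3, 1 and 1 at Klf2, Klf4 and Klf5 and a median of 1 over all genes. By this count 71.0% of genes had fewer than Pou5f1, 90.1% fewer than Nanog and 34.9% fewer than Sox2, so Sox2 stood at the median of all genes. These counts are a description without a test, windows grow with gene length, and a window can reach neighbouring genes. At Pou5f1 the counts include the regions over Tcf19 or Cchcr1, 1 of which is listed in all 12 libraries.

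The partners and targets of the 3 factors were open in both genotypes. Of 18 genes of this network list, 18 had a region within 10 kb in all 12 libraries, against 68.1% of protein-coding genes, and 15 had a region that was itself listed in all 12, against 65.1%. Esrrb, a nuclear receptor of the naive state, had 7 such regions, and Tfcp2l1, another naive factor, had 3, as did Utf1 and Dppa5a, both known as stem cell marker genes. Sall4 and Prdm14, zinc finger factors of the same network, and Lefty1, a Nodal antagonist, had 0 such regions, although some region lay near each of them in 12 of 12 libraries. In the family list of other Sox and Pou genes, 10 of 11 had a region in all 12 libraries, including the neural genes Sox1 and Pou3f2 and the endoderm gene Sox17, which were not picked as stem cell genes. Sox10, a neural crest factor, was listed in 1 synHPRT1R and 3 synHPRT1 libraries (Fisher's exact p = 0.545, adjusted p = 1).

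The label of embryonic stem cells was set against marker lists in the same way. Of 7 stem cell markers, 7 had a region in all 12 libraries, against 68.1% of protein-coding genes. So did 3 of 3 endoderm, 2 of 2 neural and 4 of 5 fibroblast or feeder markers, with Thy1 listed in 1 library. The stem cell markers add no new gene, being Pou5f1, Nanog and Sox2 with Zfp42, Esrrb, Tfcp2l1 and Dppa5a of the network list. Sox17 and Sox1 were likewise already in the family list. Of 4 genes taken as silent, 0 had a region in all 12, Alb, Ins2 and Cd3e had 0 in any library, and Myh6 had one in 4. A region within 10 kb was thus also present at most markers of other cell types, and a region near a marker does not by itself separate stem cells from those types. Fisher's exact test was run on the 3697 protein-coding genes with a region in some but not all libraries. Before adjustment 0.216% of these (8 genes) fell below 0.05, and once adjusted 0 did. From the network, family, marker and silent lists, only Sox10, Thy1 and Myh6 entered this test, with a region in 4, 1 and 4 libraries. Such low counts cannot reach a p under 0.05 however they are split, so the test could not decide for these genes. The network, family and marker lists were chosen with earlier results of these data known.

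The genes whose strongest region within 10 kb varied most like that of each member were found by Pearson's r of the position by fold over 12 libraries, as a description. For Pou5f1 they were Parp11 (r = 0.865), Slc23a2 (0.817) and Osgepl1 (0.801), out of 14240 genes compared. The strongest region near Pou5f1 was the one at 10.9 kb, which holds the starts of Tcf19 and Cchcr1. These r values thus describe that region and not the one at 2.0 kb before the Pou5f1 start. For Nanog the first was Prss57 (r = 0.927). For Sox2 they were Cwc22 (r = 0.808), Uchl3 (0.798) and C2cd4b (0.786). All points come from the same 12 libraries and share their depth, and these values were picked as the 3 highest out of that many genes.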

How the data were processed

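ATAC-seq peak lists of 12 libraries were used, 6 per genotype, grouped by genotype and clone from the sample titles. Per the submitters' processing notes, reads were handled with MACS2 2.1.0, Bowtie2 2.2.9, bcl2fastq 2.20, deepTools 3.5.0 and SAMtools 1.9 (listed there without roles or order) on GRCm38, also called mm10. How they were run, and how Tn5 offsets, duplicates, multi-mapping reads, CAST alleles and blacklisted regions were treated, was not given in the sources used here. Every one of the authors' lists belongs to 1 library, so peaks were called per library. The deposited score of a peak follows 10 times its −log10 q-value and was not used. The deposited fold is a ratio of summit pileup to local background. The −log10 values deposited for p and q refer to the same summit, whose offset the last deposited column gives. These values are the authors', and fold and q-value served to describe or rank peaks within a list.

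Peaks of chromosomes 1 to 19, X and Y were merged over libraries wherever they overlapped. Gene spans came from RefSeq (GRCm38.p6), which gives no exons here. Summit pileup and local background were recovered as the whole number of reads that matches both fold and p-value within 0.001 in −log10 p, for 99.8% to 99.9% of the peaks of each library. Presence was tested with Fisher's exact test, position and enrichment with exact permutation tests over 924 splits, and p-values were Benjamini-Hochberg adjusted over all regions. The tests were run on simulated data with independent libraries and without clones. That check does not cover likeness among replicates of 1 clone. Given in full are regions listed in all 12 libraries, those nearest the gene ends, and those 100 to 120 kb downstream of Sox2. The likeness rule names the 3 genes with the highest r per member, and for Nanog only the first is reported here. Alternatives were lists of equal length, other thresholds, overlaps, windows and gene-end distances, other ranking measures, a replicate block and leaving out each library. The members and lists were chosen with earlier results of these data known, and the enrichment scale, the sign-flip tests and the use of annotated transcript starts after the data were seen. Python 3.11.15, numpy 2.4.6, scipy 1.17.1, pandas 2.3.3 and matplotlib 3.10.9 were used.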

Additional observations from a re-analysis of the deposited data

Results flagged for a closer look

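Of 50 groups of 6 libraries examined, 5 had 1 library far from the rest by Dixon's criterion. The criterion marks about 1 group in 20 by chance only where values are independent and normally distributed. These groups hold small counts, positions at the low end of the scale, and both position and enrichment of the same regions. The number marked can therefore not be set against that rate. At Nanog, synHPRT1R clone 1 replicate 1 listed 6 regions, where the next synHPRT1R library listed 4. The enrichment of the Nanog region at 4.6 kb before the start was 30.1 in synHPRT1 clone 2 replicate 1, the lowest of synHPRT1, with the next at 32.6. The enrichment of the Nanog region at 12.7 kb was 11.9 in synHPRT1 clone 1 replicate 1, the highest of synHPRT1, with the next at 10.5. The remaining marks fell on 1 library, synHPRT1 clone 1 replicate 2. Its position by fold was 6.52% at the Nanog start, with the next synHPRT1 library at 1.45%, and 3.53% at the Sox2 region at 106.8 kb, with the next at 0.374%.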

How the results depend on the processing

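Of 140 recomputed values, 134 did not change sign, cross the threshold or move by over 1.5 times where they are counts. Among these, 5 differences in regions per library became 0, 1 at Pou5f1 with 0.5 of the extension and 4 at Nanog. Many of the 140 are counts of regions passing after adjustment, which were 0 in every setting and had little room to move. Before adjustment, the genome-wide count by presence was 164 in the main setting. Leaving out 1 library at a time, that count was 274 to 508. In lists of equal length (38400 peaks each) the difference in regions per library, synHPRT1R minus synHPRT1, became 0.167 at Nanog and 0.5 at Sox2, and when a library had to cover 50% of a region it became 0.167 at Nanog. Fewer peaks enter such lists by construction, and the cause of the change at 50% cover was not tested. With gaps up to 100 bp merged, Pou5f1 had 6 regions and Sox2 25. The Pou5f1 region at 2.0 kb before the start then joined the one nearest the gene (chr17:35503708-35505987). Leaving out 1 library at a time, the difference ranged from -0.867 to -0.233 at Pou5f1, from -0.6 to 0.0333 at Nanog, where it changed sign without synHPRT1 clone 1 replicate 3, and from -1.73 to -0.133 at Sox2, and none passed. The libraries with a peak near a Pou5f1 end were 6 within 1 kb, 2 within 500 bp, 12 within 2 kb and 7 within 1 kb of an annotated transcript start. Under every alternative run, 0 members passed the adjusted Fisher's exact test of presence and 0 the adjusted permutation test of position. The Pou5f1 region at 2.0 kb before the start reached an unadjusted p under 0.05 by in-list percentile (exact permutation p = 0.0238, lowest adjusted p 0.835) and by −log10 p (exact permutation p = 0.0346, lowest adjusted p 0.678). By position it did so without synHPRT1R clone 2 replicate 3 (exact permutation p = 0.0281), synHPRT1 clone 2 replicate 1 (0.0390) and synHPRT1 clone 2 replicate 2 (0.0303), and its lowest adjusted p there was 0.734.

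Replicate numbers are shared between groups, but same-numbered libraries of different genotypes did not deviate together (12 pairs, r from -0.0226 to 0.0268). The labels do not say whether they were handled together, and such low r values cannot show that they were not. With the replicate number as a block, the exact permutation p of the difference was 0.574 at Pou5f1 (-0.5 regions), 1 at Nanog (-0.167) and 0.537 at Sox2 (-1), and 0 members passed by presence or position after adjustment, with the same Pou5f1 region under 0.05 by position unadjusted (exact permutation p = 0.0463). Depth limits what is detected: a peak needed 8 to 11 reads at its summit at the genome-wide background, and more where the local background was raised, as at or near all 3 gene starts. With 2 clones per genotype, a difference between clones and one between genotypes are hard to tell apart.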
